A study of Mus musculus with 4 samples.

Results

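Shallow liver sinusoidal endothelial barcodes were selected from single-cell RNA libraries of mouse liver by their sequencing depth and by 5 endothelial transcripts. Kept barcodes held 300 or more genes and no more than 20% mitochondrial UMIs (unique molecular identifiers, which count captured RNA molecules). A kept barcode was chosen when it held under 5000 UMIs, when Stab2, Clec4g, Kdr, Ptprb and Egfl7 together gave at least 3 UMIs and at least 0.1% of its UMIs, when Ptprc had at most 1 UMI, and when Cd3e, Cd79a and Clec4f had 0. This gate took 1217 of 20592 barcodes (19176 kept, of which 8302 were shallow). The mice were 2 months of age and carried the genotype A/A or S/S. Of each genotype, 1 library came from animals at baseline and 1 from animals given TNF (tumour necrosis factor, 500 ng, into the peritoneum) whose cells were taken 3 h later, which gave 4 libraries. The genotype symbols are used as the labels give them. Each library pooled liver cells of 2 mice that had been enriched for non-parenchymal cells at low speed, cleared of dead cells over Ficoll, and sorted for live cells with enrichment of macrophages. With 1 library a group no difference could be tested against replicates, and every interval given covers counting error only.

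Liver sinusoidal endothelial cells line the hepatic sinusoids with a fenestrated wall that lacks a continuous basement membrane. They clear circulating waste and immune complexes through scavenger receptors, supply Wnt and BMP ligands to neighbouring hepatocytes, and present adhesion molecules and chemokines to passing leukocytes. TNF acts on endothelium through its receptors to activate the NF-kB family of transcription factors, whose targets include leukocyte adhesion molecules, chemokines and inhibitors that feed back on the pathway.

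The gated barcodes numbered 283 in the A/A baseline library, 24 in S/S baseline, 649 in A/A TNF and 261 in S/S TNF. They made up 10.0% of kept barcodes in A/A baseline (exact binomial 95% interval 8.92 to 11.2%), 0.550% in S/S baseline (0.353 to 0.817%), 10.1% in A/A TNF (9.34 to 10.8%) and 4.72% in S/S TNF (4.18 to 5.31%). The sort enriched macrophages, so these shares do not measure the share of endothelial cells in the liver. The same gate applied at 5000 UMIs or more took 9, 5, 316 and 241 barcodes in the same order. Shallow barcodes were thus 96.9% of all gated barcodes in A/A baseline, 82.8% in S/S baseline, 67.3% in A/A TNF and 52.0% in S/S TNF. No barcode sequence was a gated barcode in more than 1 library, and library pairs shared between 4 and 12 barcode sequences in all. No doublet caller was run; the limits on Ptprc, Cd3e, Cd79a and Clec4f were the only guard.

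Median depth was 1265 UMIs in A/A baseline, 1461 in S/S baseline, 1981 in A/A TNF and 1929 in S/S TNF. The baseline barcodes were therefore shallower, and levels were compared as ratios of UMI sums within 4 depth bands (edges at 1000, 2000 and 3000 UMIs) joined into 1 common ratio. Median mitochondrial share was 5.51, 6.92, 5.62 and 6.17%, and the ribosomal RNA gene Rn18s-rs5 took 27.2, 14.6, 23.1 and 21.9% of UMIs. The gated UMIs summed to 422863, 39278, 1415828 and 580914, so the S/S baseline values rest on few molecules.

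**Figure D1:**
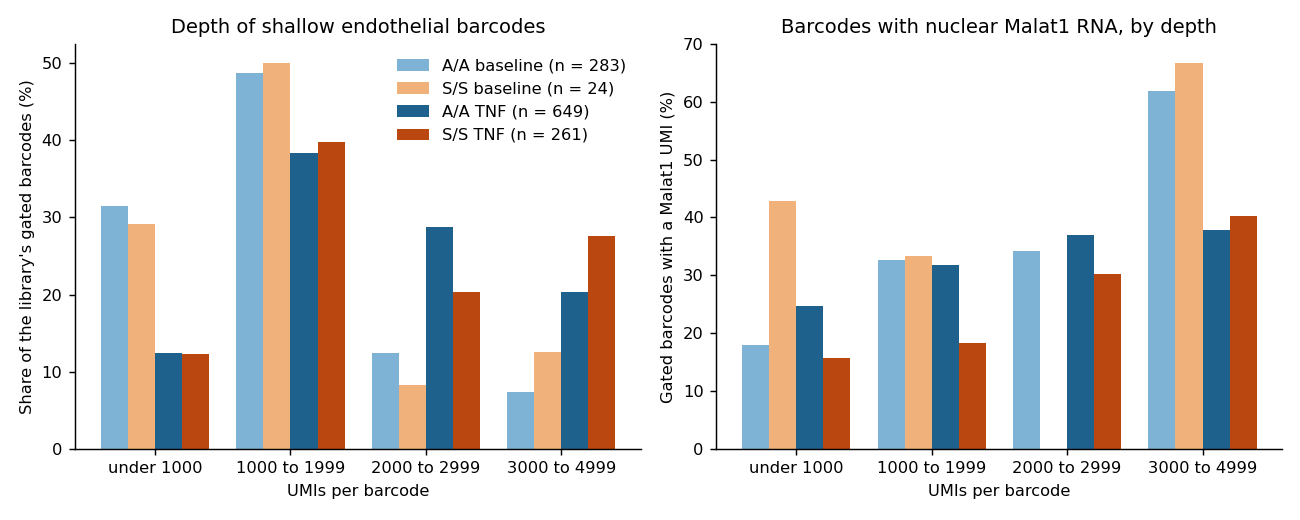
Left, share of each library's gated barcodes (y axis, percent) in 4 bands of UMIs per barcode (x axis); right, share of gated barcodes in each band with a Malat1 UMI (percent). Bars are single libraries with no error bars. In A/A baseline 31.4% of barcodes held under 1000 UMIs, against 12.5% in A/A TNF.

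The gate admitted barcodes on few marker molecules after TNF. The median sum of the 5 marker transcripts was 10 UMIs a barcode in A/A baseline, 7.5 in S/S baseline, 5 in A/A TNF and 6 in S/S TNF. Exactly 3 marker UMIs, the lowest sum allowed, were held by 15, 3, 141 and 41 gated barcodes, and 14, 11, 154 and 54 barcodes outside the gate held 2. Among the 5 marker transcripts, which chose the barcodes and so test nothing, Kdr (a VEGF receptor) had 1811 CPM (UMIs of the gene scaled to 1e6 UMIs of the gated barcodes) in A/A baseline, 815 in S/S baseline, 389 in A/A TNF and 331 in S/S TNF. Ptprb, an endothelial receptor phosphatase, had 3824, 1604, 748 and 845 CPM. Clec4g, a sinusoidal lectin, had 1594, 1960, 1057 and 1415 CPM, and the scavenger receptor gene Stab2 had 459, 356, 371 and 361 CPM.

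Transcripts that the gate did not use matched the endothelial label. The 15 further sinusoidal genes, including Stab1, Lyve1, Fcgr2b, Mrc1, Gpr182 and Dnase1l3, summed to 13342 CPM in A/A baseline, 9267 in S/S baseline, 7893 in A/A TNF and 7294 in S/S TNF. In lymphocyte barcodes under 5000 UMIs of the same libraries (at least 2 UMIs of Cd3e or Cd79a; 69, 370, 69 and 37 barcodes) the same 15 genes summed to between 148 and 262 CPM. The 16 pan-endothelial genes, such as Cdh5 and Pecam1, summed to 5188, 3081, 4441 and 4044 CPM against 107 to 348 CPM in lymphocytes. Of 4 lymphatic endothelial genes, no library exceeded 9.18 CPM in sum. The 6 central venous endothelial genes, which include Selp, summed to 402, 255, 735 and 1976 CPM in the same order of libraries. The 7 portal or arterial endothelial genes, which include Vwf, summed to 270, 153, 243 and 220 CPM. Whether some gated barcodes came from endothelial cells outside the sinusoids was not tested.

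Transcripts of other cell types were present at lower levels and differed between the libraries. Hepatocyte transcripts summed to 1717 CPM in A/A baseline, 866 in S/S baseline, 667 in A/A TNF and 1152 in S/S TNF. The 10 Kupffer cell genes, of which Clec4f was held at 0 by the gate, gave 395, 229, 414 and 866 CPM, and stellate cell genes gave 485, 993, 266 and 263 CPM. Neutrophil genes gave 89.9, 153, 1091 and 589 CPM against 24.9, 135, 605 and 333 CPM in lymphocytes. Erythroid genes gave 40.2 and 132 CPM in the A/A libraries at baseline and after TNF, and 1782 and 2109 CPM in the S/S libraries. The part of these transcripts in the results below was not tested except where a value is given.

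Malat1, a long noncoding RNA that stays in the nucleus, was seen in a minority of the gated barcodes of every library. A Malat1 UMI was found in 30.4% of gated barcodes in A/A baseline, 37.5% in S/S baseline, 33.6% in A/A TNF and 26.4% in S/S TNF. In the deeper barcodes of the same gate the share was 89.9% in A/A TNF and 92.1% in S/S TNF. In lymphocyte barcodes, which stayed under 5000 UMIs but had median depths of 3925 to 4350, it was at least 97.3% in each library. Malat1 stood at 315, 1171, 3538 and 5280 CPM in the gated barcodes, against 22804 to 27538 CPM in lymphocytes. Between 3000 and 5000 UMIs a Malat1 UMI was seen in 61.9% of 21 barcodes in A/A baseline, 66.7% of 3 in S/S baseline, 37.9% of 132 in A/A TNF and 40.3% of 72 in S/S TNF. Results are given separately for barcodes with and without a Malat1 UMI where named.

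TNF was followed in A/A mice by an endothelial inflammatory profile: chemokines, adhesion molecules and NF-kB inhibitors were higher, and sinusoidal, angiocrine and shear-responsive genes were mostly lower. The treated and baseline libraries were also made with different Cell Ranger versions (6.1.2 and 7.1.0), and whether intronic reads were counted is not stated. TNF and the software version cannot be told apart in these comparisons. Among 6989 genes with at least 20 UMIs in the A/A pair, 1532 were over 2-fold higher after TNF (21.9%) and 1019 over 2-fold lower (14.6%), with a median log2 ratio of 0.15.

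The promoters of Cxcl10 and Icam1 are shown because both genes were among the 12 with the highest ratios after TNF. The window of Cxcl10 holds full matches to the kappa B consensus, the site class bound by NF-kB, while that of Icam1 holds none. The Icam1 window does hold tggaaattcc, which misses the consensus at its first base only. Each is the 250 bases before the start site from RefSeq (GRCm38.p6), read 5′ to 3′ on the gene's strand, with matches to the kappa B consensus on either strand in capitals. Cxcl10 lies at chr5:92348890-92349139 on the minus strand and Icam1 at chr9:21015690-21015939 on the plus strand.
Cxcl10: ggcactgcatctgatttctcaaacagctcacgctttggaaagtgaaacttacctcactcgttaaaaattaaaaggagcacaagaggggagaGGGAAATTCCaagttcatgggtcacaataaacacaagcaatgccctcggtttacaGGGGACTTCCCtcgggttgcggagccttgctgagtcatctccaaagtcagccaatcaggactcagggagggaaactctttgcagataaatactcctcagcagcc
Icam1: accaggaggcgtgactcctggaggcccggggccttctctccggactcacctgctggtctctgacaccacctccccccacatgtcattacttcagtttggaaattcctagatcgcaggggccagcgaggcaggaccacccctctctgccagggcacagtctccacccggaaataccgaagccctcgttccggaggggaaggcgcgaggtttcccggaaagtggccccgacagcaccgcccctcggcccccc
Cxcl10 had 3 matches in 2 separate stretches, starting 159 and 103 bases before the start site at the outermost. Matches were counted in windows of 300 bases, the 250 bases before the start and 50 after it. Of the 12 genes, 7 had a RefSeq window, and 2 of these 7 (Cxcl10 and Maff) held a match. Across all 300-base windows, 8.46% of windows and 9.55% of genes held one. A match is a description of letters and not of binding, and the lack of a full match does not show that a site is absent.

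Among genes named as higher after TNF in A/A, the chemokine gene Ccl2 had the highest ratio. Ccl2, which attracts monocytes, had 1 UMI in A/A baseline, 0 in S/S baseline, 1229 in A/A TNF and 477 in S/S TNF, or 2.36, 0, 868 and 821 CPM. Its log2 ratio in A/A was 8.58 (95% counting interval from 6.1 to 13.88, with a single baseline UMI). Cxcl10, a ligand of the T cell receptor CXCR3, had 3, 0, 1294 and 531 UMIs, and its log2 ratio in A/A was 7.03 (5.48 to 9.31). Both treated libraries stood far above both baseline libraries for these genes, at 59.9% of A/A TNF barcodes with a Ccl2 UMI and 56.9% with a Cxcl10 UMI. Cxcl11, another CXCR3 ligand, had 0, 0, 427 and 354 UMIs and was at least 42.5-fold higher after TNF in A/A, counted against a floor of 3 UMIs. Cxcl9, the remaining CXCR3 ligand, was already detected at baseline with 36 and 3 UMIs and had 951 and 373 after TNF (log2 ratio 3.08 in A/A). Cxcl12, a chemokine made constitutively by stromal and endothelial cells, went the other way with 37 UMIs in A/A baseline and 17 in A/A TNF (log2 -2.50, -3.46 to -1.60). Of 17 chemokine genes compared in A/A, 13 were over 2-fold higher and 2 over 2-fold lower, with a median log2 ratio of 2.08 beside 0.15 over all genes.

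Adhesion molecules for leukocytes followed. Icam1, the ligand of leukocyte integrins, had 8 UMIs in A/A baseline, 0 in S/S baseline, 1530 in A/A TNF and 579 in S/S TNF, or 18.9, 0, 1081 and 997 CPM. It was 55.7-fold higher after TNF in A/A (log2 5.80, 4.81 to 7.01). Lymphocyte barcodes of the treated libraries had 105 and 79.9 CPM of Icam1. After each barcode was thinned to 500 UMIs, Icam1 was seen in 1.06% of gated barcodes in A/A baseline and 32.5% in A/A TNF, against 8.70% of A/A TNF lymphocytes; without thinning it was seen in 2.83% and 73.5% of gated barcodes. Vcam1, the counter-receptor of integrin alpha 4 beta 1, had 15, 0, 2443 and 665 UMIs, or 35.5, 0, 1725 and 1145 CPM (log2 5.52 in A/A, 4.79 to 6.36). Selp, which encodes the rolling receptor P-selectin, had 21.3, 25.5, 494 and 1737 CPM (log2 4.65 in A/A, 3.71 to 5.79). Sele, encoding E-selectin, had 0, 0, 93 and 114 UMIs and was at least 9.26-fold higher in A/A. Of the 12 adhesion genes compared in A/A, 6 were over 2-fold higher and 2 lower (median 1.07).

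**Figure D2:**
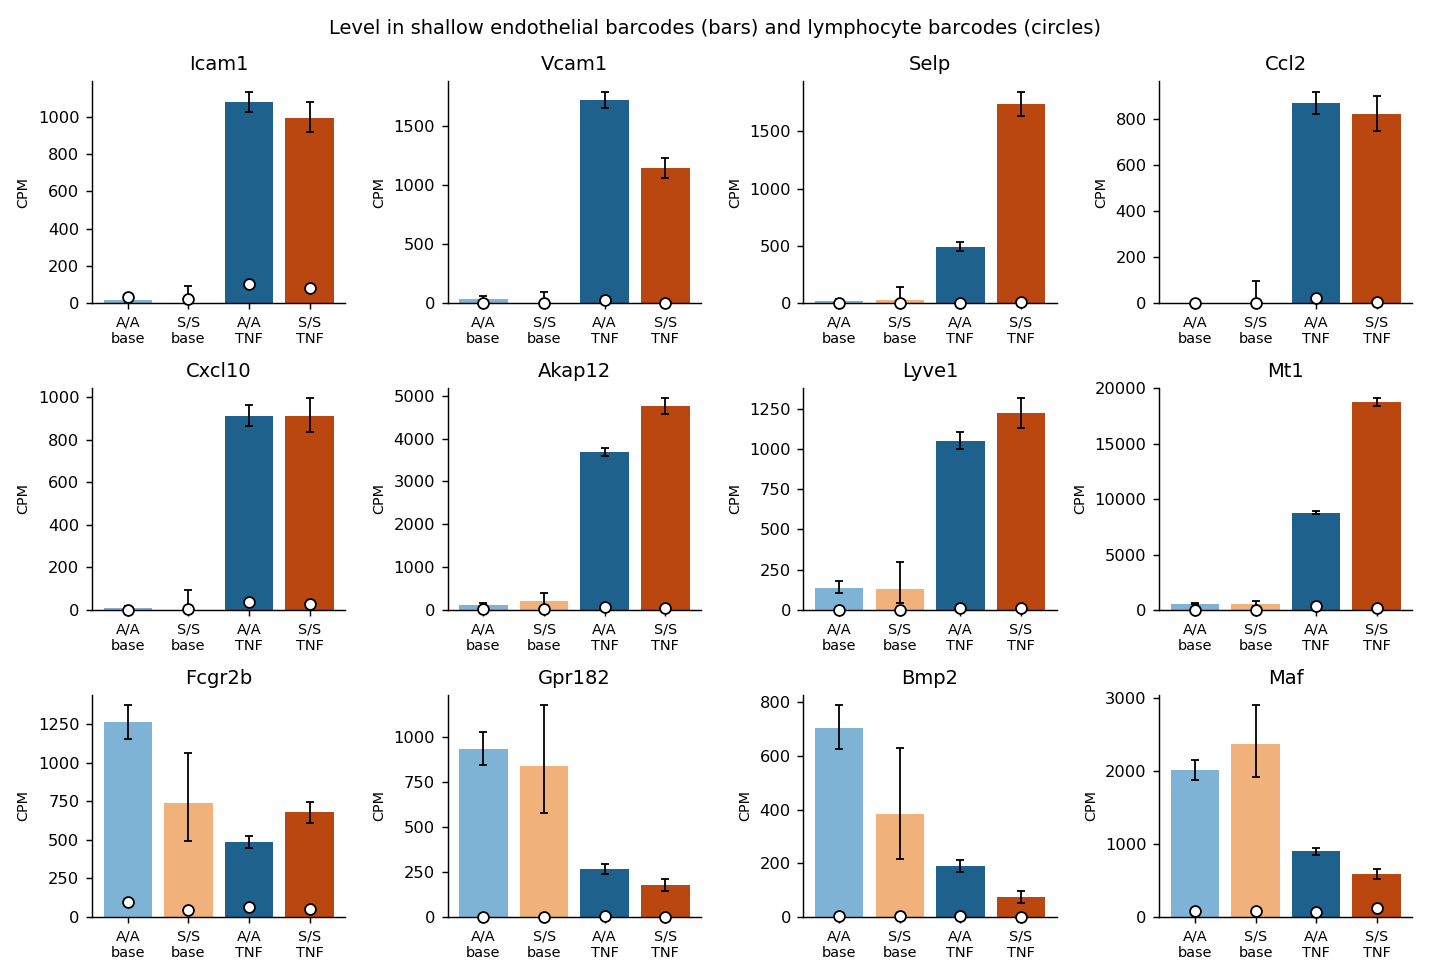
CPM (y axis, linear, starting at 0) of 12 genes in the gated barcodes of each library (bars, with exact 95% counting intervals) and in lymphocyte barcodes under 5000 UMIs (white circles). Icam1, Vcam1, Ccl2, Cxcl10, Akap12, Lyve1 and Mt1 stand high in both TNF libraries, Selp highest in S/S TNF, and Gpr182, Bmp2 and Maf high in both baseline libraries.

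All 24 NF-kB subunit and feedback genes compared in A/A had a higher level after TNF, 21 of them over 2-fold, with a median log2 ratio of 2.60. Nfkbia, the inhibitor that holds NF-kB in the cytoplasm, had 130 CPM in A/A baseline, 306 in S/S baseline, 808 in A/A TNF and 666 in S/S TNF. Tnip1, a partner of the A20 deubiquitinase, had 42.6, 50.9, 715 and 704 CPM, and Tnfaip3, which encodes A20, had 16.6, 0, 241 and 186 CPM. Other shallow barcodes of the A/A TNF library held Tnfaip3 at 470 CPM and Nfkbia at 2888 CPM, so these inhibitors were not highest in the endothelial barcodes. Icam1 at 832 CPM and Ccl2 at 196 CPM were lower in those other barcodes than in the gated ones.

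Further response groups moved in the same direction in A/A. Of 19 immediate early genes 14 were over 2-fold higher and none lower by that much (median 1.49), and of 28 interferon-stimulated genes 13 were higher and 1 lower (median 0.99). The interferon list did not rise in S/S, where it already stood higher at baseline than in A/A. Its 30 genes summed to 2438 CPM in A/A baseline, 4812 in S/S baseline, 4837 in A/A TNF and 3946 in S/S TNF. The S/S baseline sum rests on 24 barcodes and 189 UMIs. Of 23 genes compared there, 1 was over 2-fold higher and 7 lower (median -0.43), beside 16.8% and 19.2% of all genes. The immediate early genes summed to 546 CPM in A/A baseline and 1660 in A/A TNF, less than in other shallow barcodes (1708 and 10516 CPM) or in lymphocytes (1555 and 2410 CPM). Irf1, the interferon regulatory factor, had 80.4 CPM in A/A baseline, 50.9 in S/S baseline, 237 in A/A TNF and 96.4 in S/S TNF. The metal-binding metallothionein Mt1 had 565, 560, 8784 and 18741 CPM, and Mt2 had 99.3, 127, 3883 and 8005 CPM. Mt1 had 340 CPM in A/A TNF lymphocytes, and in other shallow barcodes it had 103 CPM in A/A baseline and 5816 in A/A TNF. Odc1, the first enzyme of polyamine synthesis, had 21.3, 25.5, 1187 and 1418 CPM. Akap12, a scaffold protein for protein kinase A, had 125, 204, 3689 and 4760 CPM; after thinning it was seen in 5.30% of A/A baseline barcodes and 75.8% of A/A TNF barcodes (14.8% and 94.8% without thinning). The growth factor subunit gene Inhbb had 4, 0, 702 and 346 UMIs, and Esm1, a proteoglycan of activated endothelium, had 1, 0, 213 and 110 UMIs.

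**Figure D3:**
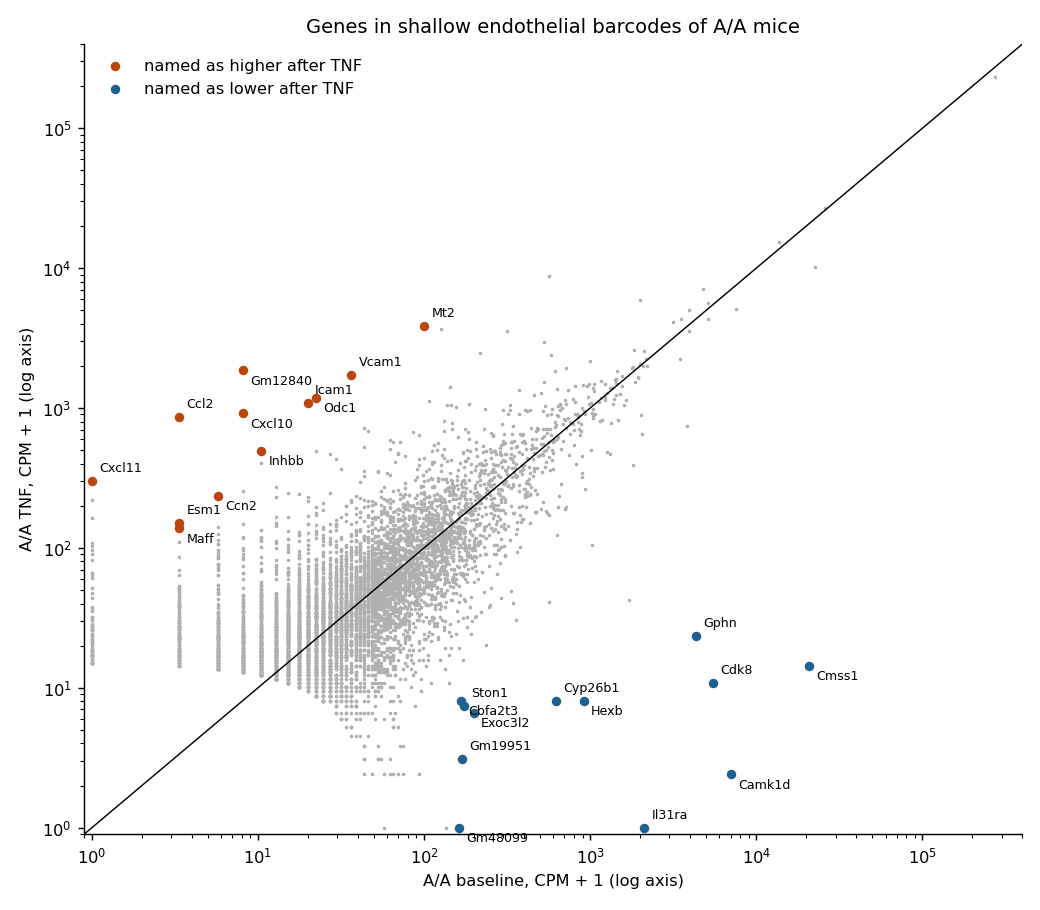
Each point is a gene with at least 20 UMIs in the A/A pair, by CPM + 1 in A/A baseline (x, log axis) and A/A TNF (y, log axis); the line marks equal levels. The 12 genes named as higher lie up to Ccl2 at a log2 ratio of 8.58, and the genes named as lower include Camk1d, Cmss1, Cdk8 and Gphn.

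Genes that define sinusoidal identity were mostly lower after TNF in A/A, with 1 exception. Of 15 compared, 7 were over 2-fold lower and 1 over 2-fold higher, with a median log2 ratio of -0.77. Gpr182, a scavenging chemokine receptor, had 934 CPM in A/A baseline, 840 in S/S baseline, 264 in A/A TNF and 176 in S/S TNF. Fcgr2b, the receptor that takes up immune complexes, had 1260, 738, 484 and 677 CPM. Maf, a transcription factor of sinusoidal differentiation, had 2012, 2368, 896 and 584 CPM, and the sinusoidal factor Gata4 had 173, 204, 72.7 and 24.1 CPM. Stab1, the sister scavenger receptor of Stab2, differed little in A/A with a log2 ratio of -0.19 (-0.42 to 0.05). Lyve1, the hyaluronan receptor, was the exception at 137, 127, 1050 and 1220 CPM (log2 2.94 in A/A, 2.56 to 3.35). It was seen in 5.65% of A/A baseline and 35.4% of A/A TNF barcodes after thinning, and in none of the thinned A/A TNF lymphocytes (13.1% and 69.2% of gated barcodes without thinning). Of 16 pan-endothelial genes none was over 2-fold higher and 6 were lower (median -0.43); Cdh5, encoding VE-cadherin, had 518 CPM in A/A baseline and 951 CPM in A/A TNF.

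Ligands and flow-responsive genes were lower as well. Bmp2, which instructs hepatocytes to express hepcidin, had 298, 15, 267 and 42 UMIs, or 705, 382, 189 and 72.3 CPM (log2 -1.85 in A/A, -2.11 to -1.59). Wnt2, a ligand for hepatocyte zonation, had 54, 2, 42 and 21 UMIs (log2 -2.02 in A/A, -2.67 to -1.37). Of 15 angiocrine and Notch genes 7 were over 2-fold lower and 1 higher (median -0.82). Klf4, a flow-induced transcription factor, had 92.2, 102, 14.8 and 41.3 CPM, and its relative Klf2 had 225, 891, 121 and 248 CPM. Of 19 genes of the shear and KLF list, 9 were over 2-fold lower and none over 2-fold higher (median -0.86). Tek, the angiopoietin receptor, had 286 CPM in A/A baseline and 77.0 CPM in A/A TNF, while its ligand Angpt2 had 7.09 and 96.1 CPM.

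**Figure D4:**
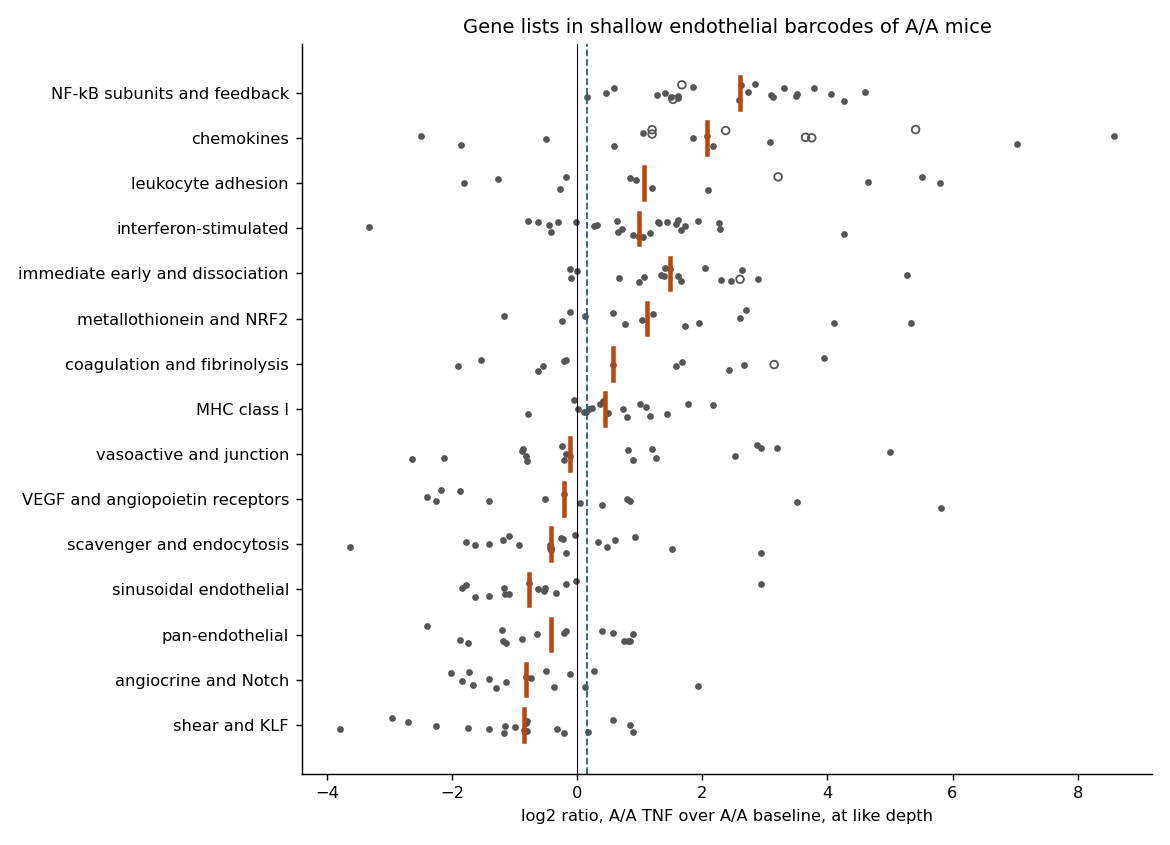
Log2 ratio of A/A TNF over A/A baseline at like depth (x axis) for the genes of each list (rows); filled points are estimates, open circles lower bounds for genes at 0 in baseline, orange bars list medians, the dashed line the median of all genes (0.15). The NF-kB list lies wholly above 0 with a median of 2.60, and the shear and KLF list has a median of -0.86. Genes of the gate were not removed from the lists, so the VEGF and angiopoietin receptor row includes Ptprb, which helped choose the barcodes.

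The same directions were measured in barcodes with and without a Malat1 UMI, although 0 Malat1 UMIs at this depth does not show that nuclear RNA was absent. Among A/A barcodes with no Malat1 UMI the log2 ratio after TNF was 5.29 for Icam1, 5.76 for Vcam1, 4.88 for Akap12, 3.23 for Lyve1, -1.79 for Gpr182 and -1.97 for Bmp2. Among those with a Malat1 UMI the values were 7.43, 5.18, 5.08, 2.47, -1.71 and -1.70 in the same order. Every one of these 6 genes kept its direction in both subsets.

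Several genes with long introns had the lowest ratios after TNF. Cmss1 had 20893 CPM in A/A baseline, 12450 in S/S baseline, 13.4 in A/A TNF and 5.16 in S/S TNF, and Camk1d had 6998, 2851, 1.41 and 5.16 CPM. The same contrast was present outside the endothelial barcodes: in other shallow barcodes Cmss1 had 19342 CPM in A/A baseline and 4.99 CPM in A/A TNF. By total intron length, the median A/A log2 ratio was 0.35 for 520 genes under 1 kb, 0.32 for 1773 genes of 1 to 10 kb, 0.12 for 3930 genes of 10 to 100 kb and -0.39 for 762 genes of 100 kb or more. In S/S, with the same versions compared, the medians were -0.20, 0, 0 and 0 in these classes, and 24.9, 22.4, 16.4 and 20.9% of genes were over 2-fold lower. The S/S baseline library held only 24 barcodes, and bounds that gave no direction were counted at 0. These medians therefore cannot show whether S/S had a gradient. Cmss1, Camk1d, Cdk8 and Gphn were all over 2-fold lower in S/S too (median -8.77). Among genes under 10 kb of intron alone, 27.3% were over 2-fold higher and 10.7% lower in A/A. Cyp26b1, a retinoic acid-degrading enzyme, was concentrated in the gated barcodes: it had 622 CPM in A/A baseline and 7.06 in A/A TNF among gated barcodes, and 22.2 and 0.997 CPM among other shallow barcodes.

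In S/S mice the baseline library held only 24 barcodes, and 610 of 3652 genes compared were at 0 in 1 of its sides and gave bounds alone. Of these 3652 genes, 612 were over 2-fold higher (16.8%) and 701 over 2-fold lower (19.2%), with a median log2 ratio of 0. Bounds that gave no direction were counted at 0 in this median. Among genes that reached 200 UMIs the shares were 30.7% higher and 10.2% lower, which turns the balance round. Selp had 1 UMI at baseline and 1009 after TNF (log2 6.02, 3.54 to 11.33). Akap12 had 8 and 2765 UMIs (log2 4.58, 3.60 to 5.79), Mt1 had 22 and 10887 (log2 5.14, 4.54 to 5.81) and Lyve1 had 5 and 709 (log2 3.17, 1.94 to 4.80). On the lower side, Gpr182 had 33 and 102 UMIs (log2 -2.19, -2.79 to -1.56), Maf 93 and 339 (log2 -2.20, -2.55 to -1.84) and Nr2f2, a venous transcription factor, 22 and 50 (log2 -2.75, -3.53 to -1.93). The A/A values for Gpr182, Maf and Nr2f2 were -1.77, -1.18 and -1.67. The sinusoidal and pan-endothelial lists did not show in S/S the lower medians of A/A. Of 15 sinusoidal genes 8 were higher and 7 lower (3 and 5 over 2-fold, median 0.09, against -0.77 in A/A). Of 15 pan-endothelial genes 10 were higher and 5 lower (3 and 2 over 2-fold, median 0.55, against -0.43). Other lists were lower in both genotypes. Of 10 angiocrine and Notch genes 2 were higher and 8 lower (0 and 5 over 2-fold, median -0.70, against -0.82 in A/A). Of 13 shear and KLF genes 5 were higher and 8 lower (4 and 6 over 2-fold, median -0.61, against -0.86). Of 18 NF-kB genes compared 8 were over 2-fold higher and none lower by that much (median 0.67), with 8 of the 18 given as bounds.

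The 2 baseline libraries shared a software version, as did the 2 TNF libraries. Between genotypes at baseline, 18.2% of genes were over 2-fold higher in S/S and 16.4% lower. After TNF the genotypes differed in a smaller share of genes. UMI totals also differed between these pairs, and the reason for the smaller share was not tested. Of 6898 genes compared, 355 were over 2-fold higher in S/S (5.15%) and 785 over 2-fold lower (11.4%), with a median log2 ratio of -0.18 over all genes. Among genes that reached 200 UMIs the shares were 3.26% higher and 2.68% lower, so the excess of lower genes lay among those with fewer. After centring on that median the shares were 7.06% higher and 7.94% lower. These comparisons use the same TNF libraries as those against baseline, so their values are not independent.

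Fgf23 had the highest ratio among the genes named by size between S/S and A/A after TNF, followed by Slc2a1, Procr, Ero1a and Csf2rb2. The 4 erythroid genes compared had log2 ratios of 3.60 to 4.46 and are described below with other cell types. Fgf23, a hormone of phosphate balance made mainly by bone, had 0 UMIs in both baseline libraries, 6 in A/A TNF and 156 in S/S TNF. It was 64.3-fold higher in S/S (log2 6.01, 4.85 to 7.48) and was seen in 23.4% of S/S TNF barcodes and 0.924% of A/A TNF barcodes. In lymphocytes it had 0 CPM in all 4 libraries, and in the deeper barcodes of the same gate it had 16.2 CPM in A/A TNF and 493 CPM in S/S TNF. Slc2a1, the glucose transporter GLUT1, had 2, 0, 16 and 98 UMIs (log2 3.85, 3.07 to 4.71). Ero1a, an oxidase of the endoplasmic reticulum induced by low oxygen, had 37.8, 76.4, 39.6 and 346 CPM (log2 3.21, 2.77 to 3.66). Hilpda, a lipid droplet protein of hypoxia, had 30.4 CPM in A/A TNF and 189 in S/S TNF, and Bnip3, which promotes mitophagy, had 26.1 and 119 CPM. Slc2a1 stood at 122 and 133 CPM in other shallow barcodes of the A/A and S/S TNF libraries, so its difference was not seen there.

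Several genes of clotting and 2 selectins were higher in S/S as well. Procr, the endothelial protein C receptor, had 15.5 CPM in A/A TNF and 136 in S/S TNF (log2 3.26, 2.56 to 4.02). Vwf, the platelet-binding factor, had 11 UMIs in A/A TNF and 43 in S/S TNF (log2 3.27, 2.29 to 4.38). Selp was 3.55-fold and Sele 3.16-fold higher in S/S. Platelets also carry Vwf and Selp RNA, and the 4 platelet genes summed to 45.2 CPM in A/A TNF and 184 in S/S TNF, with both of the 2 compared over 2-fold higher (median 2.60); their part in these differences was not tested. Of 13 coagulation genes 6 were over 2-fold higher and none lower by that much (median 0.94 beside -0.18 over all genes). Icam1 (log2 -0.12, -0.26 to 0.02), Ccl2 (-0.15, -0.30 to 0.01) and Cxcl10 (0.00, -0.15 to 0.14) had counting intervals that include equal levels, while Vcam1 was lower in S/S at -0.65 (-0.77 to -0.52). Of 13 adhesion genes, 5 were over 2-fold higher and none lower by that much (median 0.04). Of 24 NF-kB genes, 1 was over 2-fold higher and 2 lower (median -0.31).

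Lower in S/S were Sox18, an endothelial transcription factor, with 221 UMIs in A/A TNF and 11 in S/S TNF (log2 -3.04, -4.06 to -2.17), and the cyclin gene Ccnd1, with 825 and 84 (log2 -1.98, -2.33 to -1.66). Bmp2 had 189 CPM in A/A TNF and 72.3 in S/S TNF (log2 -1.42, -1.93 to -0.94), Gata4 72.7 and 24.1 CPM, and Ccn2, a matricellular protein, 234 and 70.6 CPM. H2-Q6 and H2-Q4, class I genes with near-identical copies to which reads may be split, had 106 and 161 CPM in A/A TNF and 18.9 and 51.6 CPM in S/S TNF. These genes of different roles shared only the direction. Of 14 angiocrine and Notch genes compared, 4 were over 2-fold lower and 1 higher (median -0.35).

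**Figure D5:**
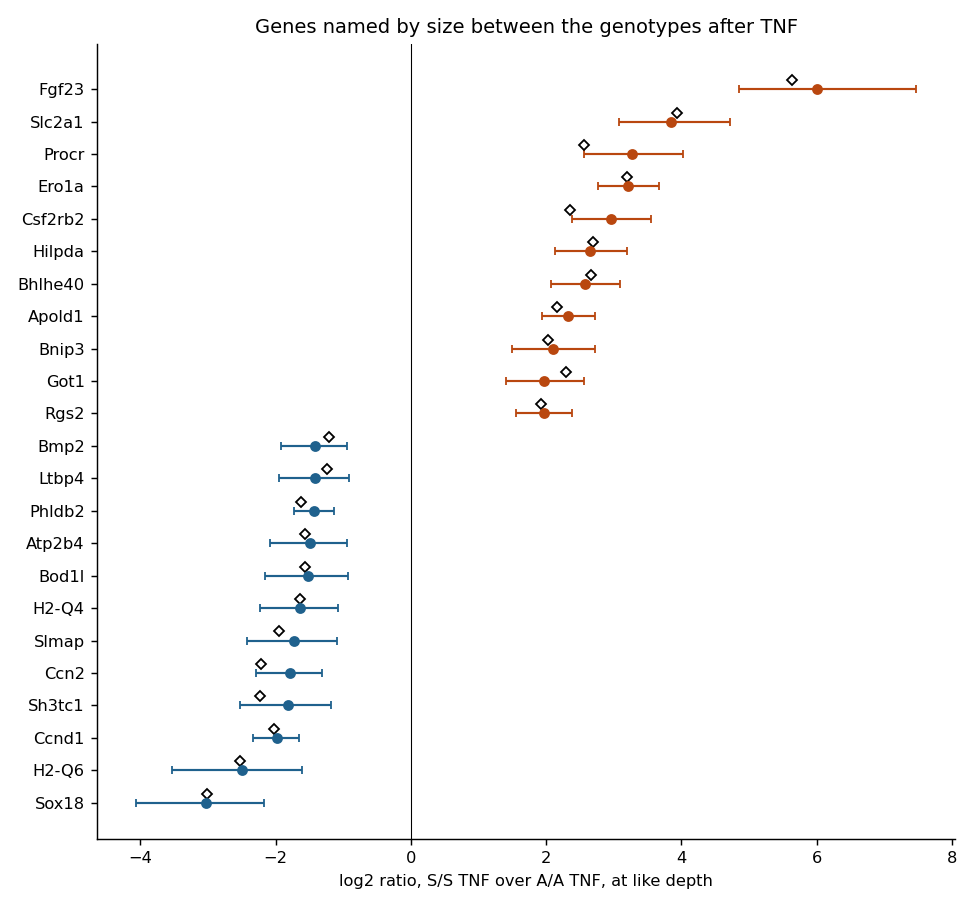
Log2 ratio of S/S TNF over A/A TNF at like depth (x axis) for genes named by the size of their ratio, 11 higher and 12 lower in S/S (rows), with exact 95% counting intervals; white diamonds give the ratio among barcodes with no Malat1 UMI. Fgf23 lies highest at 6.01 and Sox18 lowest at -3.04, and the diamonds keep the sign of the points.

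Transcripts of other cells moved with the genotype after TNF. Cd74, the invariant chain of MHC class II, had 312 CPM in A/A TNF and 938 in S/S TNF, and all 7 class II genes compared were over 2-fold higher in S/S (median 1.53). Of 9 Kupffer genes 7 were over 2-fold higher, and the erythroid sum was 132 against 2109 CPM. In the deeper barcodes of the gate Cd74 had 348 and 207 CPM, in the opposite order. Among barcodes without a Cd74 UMI the S/S ratio remained 5.91 for Fgf23, 3.36 for Slc2a1, 2.83 for Ero1a, 1.72 for Selp and -2.67 for Sox18 on the log2 scale.

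At baseline 3052 genes could be compared between the genotypes. Of these 556 were over 2-fold higher in S/S (18.2%) and 500 over 2-fold lower (16.4%). The S/S side held only 24 barcodes, and 254 of the genes gave bounds alone. Scaling without Rn18s-rs5, mitochondrial and hemoglobin genes gave 12.3% higher and 23.2% lower, which turns the balance round. Of 15 interferon-stimulated genes compared, 10 were over 2-fold higher in S/S and 1 lower (median 1.27). Fabp4, a fatty acid carrier of endothelium, had 610 CPM in A/A baseline and 6085 in S/S baseline, then 1833 and 3567 CPM after TNF. Mrc1, the mannose receptor, had 1005 and 255 CPM at baseline and 503 and 556 CPM after TNF. By intron length the baseline medians ran from 0.70 under 1 kb to -0.16 at 100 kb or more within 1 software version, and the part of intron length in this comparison was not tested.

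Compared with deeper barcodes of the same gate and library, the shallow barcodes had more RNA of Kupffer cells and of several other cell types, and less of several regulators. The limits on Ptprc, Cd3e, Cd79a and Clec4f were fixed UMI counts, so they were stricter for deeper barcodes. Median depth of the deeper barcodes was 11467.5 UMIs in A/A TNF and 11168 in S/S TNF. The part of this selection in the excess of other-cell RNA was not tested. Over 2-fold higher in the shallow barcodes were 236 of 9601 genes in A/A TNF (2.46%) and 343 of 8606 in S/S TNF (3.99%), and over 2-fold lower were 1390 (14.5%) and 1711 (19.9%). Kupffer genes were over 2-fold higher in 8 of 9 and 9 of 9 cases, hepatocyte genes in 2 of 10 and 10 of 10, and neutrophil genes in 6 of 7 and 3 of 5. MHC class II genes were over 2-fold higher in 1 of 7 and 7 of 7 cases, and stellate genes in 3 of 6 and 0 of 4. Mitochondrial transcripts had medians of 0.74 and 0.89 beside -0.30 and -0.40 over all genes. Erythroid genes went the other way in A/A TNF, with 6 of 6 over 2-fold lower in shallow barcodes (132 against 464 CPM in sum), and had a median of -0.18 in S/S TNF. Klf2 had 121 CPM in shallow and 237 CPM in deeper A/A TNF barcodes, and 248 against 705 CPM in S/S TNF. Rspo3, a Wnt amplifier, had 61.4 against 207 CPM in A/A TNF. Akap12 was close in both, at 3689 and 3456 CPM in A/A TNF and 4760 and 5392 CPM in S/S TNF. Of 15 sinusoidal genes, 0 in A/A TNF and 1 in S/S TNF were over 2-fold lower in the shallow barcodes, with medians of -0.52 in each.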

How the data were processed

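The deposited matrices held whole-number UMI counts per gene and barcode, which the authors made with Cell Ranger against mm39, per the submitters' processing notes; the file headers gave version 6.1.2 for the TNF libraries and 7.1.0 for the baseline libraries. The kit captured 3' ends of polyadenylated RNA, per the labels' protocols. Each matrix held 55414 genes. Counts were summed per library over the gated barcodes and over lymphocyte, deeper and other shallow barcodes. Ratios were the maximum likelihood of 1 common Poisson rate ratio over 4 depth bands, with exact conditional 95% intervals. Genes needed 20 UMIs in the pair, and a side at 0 was replaced by 3 UMIs. Where the bound from that floor passed 0 on the log2 scale, the ratio was set to 0. Scripts were tested on simulated data. Genes were named by rule: the 12 highest and 12 lowest ratios in each comparison among genes with 50 UMIs, 100 CPM in the higher library, at most 20% of UMIs in 1 barcode, a level no lower than in other shallow barcodes and no use in the gate, and up to 4 genes of each list by size of the A/A ratio; other genes were chosen after their values were seen. Some genes that the rule names are given no value in the text, and 1 of them is also left out of the plot. Of 486 listed genes 485 were found. The barcodes and lists were chosen with earlier results of these data known. Intron lengths came from GENCODE on GRCm38 by gene identifier. Alternatives covered the gate, depth, thinning, scaling and minimum UMIs. Analyses ran in Python 3.11.15 with pandas 2.3.3, scipy 1.17.1, numpy 2.4.6 and matplotlib 3.10.9.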

Additional observations from a re-analysis of the deposited data

Results flagged for a closer look

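The ratio of TNF to baseline had opposite signs in the 2 genotypes for 3 named genes, with counting intervals on opposite sides of 0; with 1 library a group the difference was not tested. Ier5, an immediate early gene, had a log2 ratio of 1.49 in A/A (14 UMIs at baseline, 123 after TNF) and -2.95 in S/S (9 and 22). Mrc1, the mannose receptor, had -1.09 in A/A (425 and 712) and 1.13 in S/S (10 and 323). Snrpb, a splicing protein, had 1.01 in A/A (52 and 333) and -1.14 in S/S (17 and 117). Each S/S value rests on 17 or fewer baseline UMIs.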

How the results depend on the processing

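No paired analysis was possible because each group is 1 library and the labels give no replicate numbers that pair libraries. In A/A, the shares of genes over 2-fold higher or lower after TNF stayed within 1.5 times of the reported values under all 42 values from the alternatives. The A/A shares at 200 UMIs in the pair were not recorded, so these 42 values leave that setting out and A/A was not checked against it. The setting of 200 UMIs moved shares in each of the other comparisons between libraries. The cause was not tested for the changes that follow. The S/S TNF share higher became 30.7% at 200 UMIs in the pair, 28.1% at 50 and 8.17% at 5, and the share lower 10.2% at 200 UMIs and 12.2% after thinning. Between genotypes after TNF, the share higher became 3.26% at 200 UMIs and 9.13% at 5, and the share lower 2.68% at 200 and 6.93% at 50. At baseline the share higher became 30.8% at 200 UMIs and 32.7% under 10 kb of intron, and the share lower 10.9% without Clec4g in the gate, 6.80% at 5 UMIs and 9.59% under 10 kb; scaling without Rn18s-rs5, mitochondrial and hemoglobin genes gave 12.3% higher and 23.2% lower. That scaling moved the named genes' log2 ratios by a median of -0.10 (A/A TNF), 0.16 (S/S TNF), -0.0085 (genotypes after TNF) and -0.24 (genotypes at baseline). The baseline genotype ratio turned to -0.60 for Malat1 without Cd74-positive barcodes, to -0.014 for Nfkbia with a Malat1 UMI, and for the hepatocyte list median to 0.025 at 5 markers and 0.2%, or 0.29 at 1% or less of other-cell markers. Gated barcodes numbered 424 in A/A TNF and 161 in S/S TNF without Clec4g, 341 and 157 at 5 markers and 0.2%, and 165 in A/A baseline, 159 in S/S TNF and 11 in S/S baseline at 500 genes and 10% mitochondrial. Against deeper barcodes the share higher became 5.13% at 5 UMIs and 1.41% at 50 in A/A TNF, and 7.47% at 5 in S/S TNF. Thinning to 500 UMIs moved the share of barcodes with a UMI in A/A TNF, A/A baseline and S/S TNF to 75.8, 5.30 and 85.8% for Akap12, 32.5, 1.06 and 31.8% for Icam1 and 35.4, 5.65 and 35.2% for Lyve1, and for Vcam1 to 47.3% in A/A TNF and 34.9% in S/S TNF. The splits by Malat1, by Cd74 and at 200 UMIs were chosen after seeing the data.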
